A study of Homo sapiens with 18 samples.

Results

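The growth arrest targets of p53 were followed as a set of 9 genes: CDKN1A, MDM2, GADD45A, GDF15, TP53INP1, SESN1, FAS, SPATA18 and BTG2. A probe set was taken as a member where its symbol in the platform annotation was exactly one of these names. Of the 9 genes, 8 were measured, by 26 probe sets, out of 19775 genes on 41097 probe sets that name a single gene. BTG2, an antiproliferative factor, is named by no probe set of the annotation used here and was not analysed here.

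p53 is a transcription factor that is stabilised by DNA damage and other stress and then switches on genes that stop the cell cycle, repair DNA or end the cell's life. p21, the product of CDKN1A, blocks cyclin-dependent kinases, and the genes of mitosis and DNA replication then fall. MDM2 marks p53 for degradation, so that the response limits itself. A549 cells are known to carry wild-type p53, and formaldehyde is known to crosslink DNA with protein.

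The cells were A549, an established human lung carcinoma line, grown on membranes at the air-liquid interface and kept for 72 h in a humidified atmosphere. In each of 9 experiments cultures stood in an exposure chamber and in a reference chamber, and the reference chamber never held formaldehyde. The exposure chamber held 0 ppm in 3 experiments, 0.1 ppm in 3 and 0.5 ppm in 3, which gives 6 groups of 3 arrays and 18 arrays in all. All groups share the cell line, the culture form and the time, so a single line stands for the lung epithelium here. The chambers were separate devices, and the reference chamber's gas supply lacked the stream that carried the analyte. The titles give each array a letter and a number, and arrays that share both were read as the 2 chambers of 1 experiment. The labels do not state this in words, and every count or correlation over the 9 experiments below rests on it. The experiment is the replicate, and p-values measure the spread between 3 arrays per group.

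The epithelial markers KRT8, KRT18, CDH1 and EPCAM had MAS5 signals between 324.4 and 25797.1 on every array, while PTPRC and CD3E of leukocytes, COL3A1 and DCN of fibroblasts, and VWF and CDH5 of endothelium lay below the median probe set. COL1A1, CD14 and PECAM1, of the same 3 cell classes, lay above it, with signals of 193.5 to 459.4, 54.5 to 338.3 and 12.9 to 106.4. KRT19 had signals of 24.6 to 140.1. The 5′ actin probe set, which tracks RNA integrity, set 2 reference-chamber arrays apart. Its log2 signal was 5.90 on replicate 1 of the 0.1 ppm experiments and 6.85 on replicate 3 of the 0 ppm experiments, and between 7.75 and 9.70 on every other array. These 2 are called the low actin arrays. Every value below is a log2 MAS5 signal or a difference of such signals, and the brightest probe set of a gene stands for it.

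MDM2 and FAS are shown by sequence because a start of each gene has a match to the p53 full site, a pair of 10-letter half-sites, within the 250 bases before it (RefSeq, GRCh38.p14). Capitals mark the 20 letters of the match, with 50 bases on either side:
MDM2, chr12:68808873-68808992, plus strand: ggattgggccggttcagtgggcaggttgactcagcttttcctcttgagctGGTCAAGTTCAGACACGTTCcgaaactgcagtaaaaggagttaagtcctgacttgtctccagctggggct
FAS, chr10:88991259-88991378, plus strand: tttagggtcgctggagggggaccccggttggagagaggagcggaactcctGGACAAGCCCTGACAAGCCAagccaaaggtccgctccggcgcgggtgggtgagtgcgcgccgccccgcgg
Both matches had 2 mismatches in all, no spacer, and the C at the fourth and the G at the seventh letter of each half-site in place. The MDM2 match ran from 94 to 75 bases before a start that lies inside the gene, and the FAS match from 122 to 103 bases before one. A second reading of the FAS match, with a spacer of 5 bases, overlaps the first. Such a match, with these letters in place, at most 2 mismatches and a spacer of up to 13 bases on either strand, is held by 2.93% of 35116 windows of 300 bases, from 250 before to 50 after a RefSeq start. An exact half-site is held by 6.63% of them, among them a SESN1 start, with ggacaagtct at chr6:109009028-109009037 on the minus strand. In the windows of CDKN1A, GDF15, SPATA18 and BTG2 neither pattern was found, which says only that these letters are not in those windows.

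Formaldehyde was read in 5 comparisons: exposure against reference chamber at 0, at 0.1 and at 0.5 ppm, and within the exposure chamber 0.1 against 0 ppm and 0.5 against 0 ppm. A probe set was called in a single comparison at an unadjusted p under 0.05 in limma, the p threshold of the study. The paper's own rule was stricter. A transcript counted for a concentration only if it passed against both controls and not between the chambers at 0 ppm. With 0 ppm in both chambers, 0 of the 26 probe sets were called, where 4.84% of all 54675 probe sets were. At 0.1 ppm against the reference chamber 0 of 26 were called (all probe sets: 4%), and at 0.5 ppm 0 of 26 (3.92%). Within the exposure chamber 0 of 26 were called at 0.1 against 0 ppm (4.47%) and 0 of 26 at 0.5 against 0 ppm (4.56%). The lowest unadjusted p of the 26 was 0.126, 0.0889, 0.0606, 0.138 and 0.148 in the same order, and no probe set of the whole table passed an adjusted p of 0.05 in any of them, the lowest in limma being 0.158. The 8 genes had a median log2 difference of 0.13, 0.25, 0.072, -0.0037 and 0.10, where all probe sets had medians of -0.071, -0.073, -0.042, -0.034 and -0.035. Members above 0 numbered 5, 5, 7, 4 and 6 of 8. The first 3 comparisons share no array, while the last pair shares the 0 ppm exposure arrays.

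**Figure D1:**
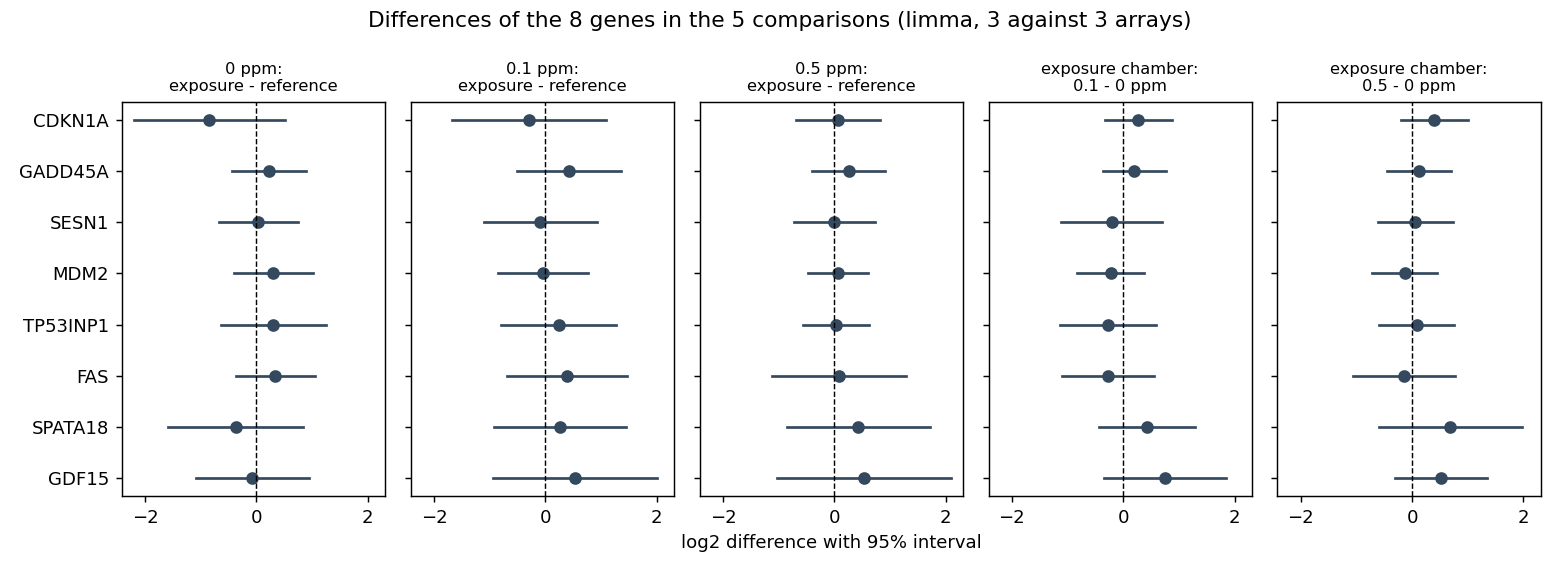
Log2 difference with its 95% interval (horizontal axis) for the brightest probe set of the 8 genes (vertical axis) in the 5 comparisons of 3 against 3 arrays (panels). All 40 intervals hold 0, and those of MDM2 are among the narrowest.

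CDKN1A (202284_s_at) encodes p21, the inhibitor that carries the arrest. With 0 ppm in both chambers its log2 signals were 9.56, 10.59 and 11.62 in the reference chamber and 9.63, 9.95 and 9.66 in the exposure chamber. At 0.1 ppm they were 11.49, 9.71 and 9.74 in the reference and 10.17, 9.74 and 10.15 in the exposure chamber, and at 0.5 ppm 9.71, 10.04 and 10.51 against 10.07, 9.96 and 10.42. The 2 highest values, 11.62 and 11.49, are those of the low actin arrays, and no exposure-chamber array stood outside the range of the 9 reference-chamber arrays. The order of the 6 group means ran from 9.75 at 0 ppm in the exposure chamber over 10.02 at 0.1 ppm, 10.08 in the reference group at 0.5 ppm, 10.15 in the exposure group at 0.5 ppm and 10.31 to 10.59 in the reference chambers of the 0.1 and 0 ppm experiments, with every step but the first, of 0.27, smaller than the larger SD of its neighbours.

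Against the reference chamber the CDKN1A difference was -0.85 at 0 ppm (95% interval -2.20 to 0.51), -0.29 at 0.1 ppm (-1.67 to 1.09) and 0.065 at 0.5 ppm (-0.69 to 0.82). Without the low actin arrays it was -0.33 at 0 ppm and 0.29 at 0.1 ppm, so the sign at 0.1 ppm rested on 1 array. Within the exposure chamber the difference from 0 ppm was 0.27 at 0.1 ppm (-0.33 to 0.88) and 0.40 at 0.5 ppm (-0.19 to 1.00). At 0.5 ppm the 3 arrays all lay above the 3 of 0 ppm, by 0.0080 at the nearest, with an unadjusted p of 0.148 and an adjusted p of 1.00 in limma. The interval of the last comparison spans ratios of 0.874 to 1.99.

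**Figure D2:**
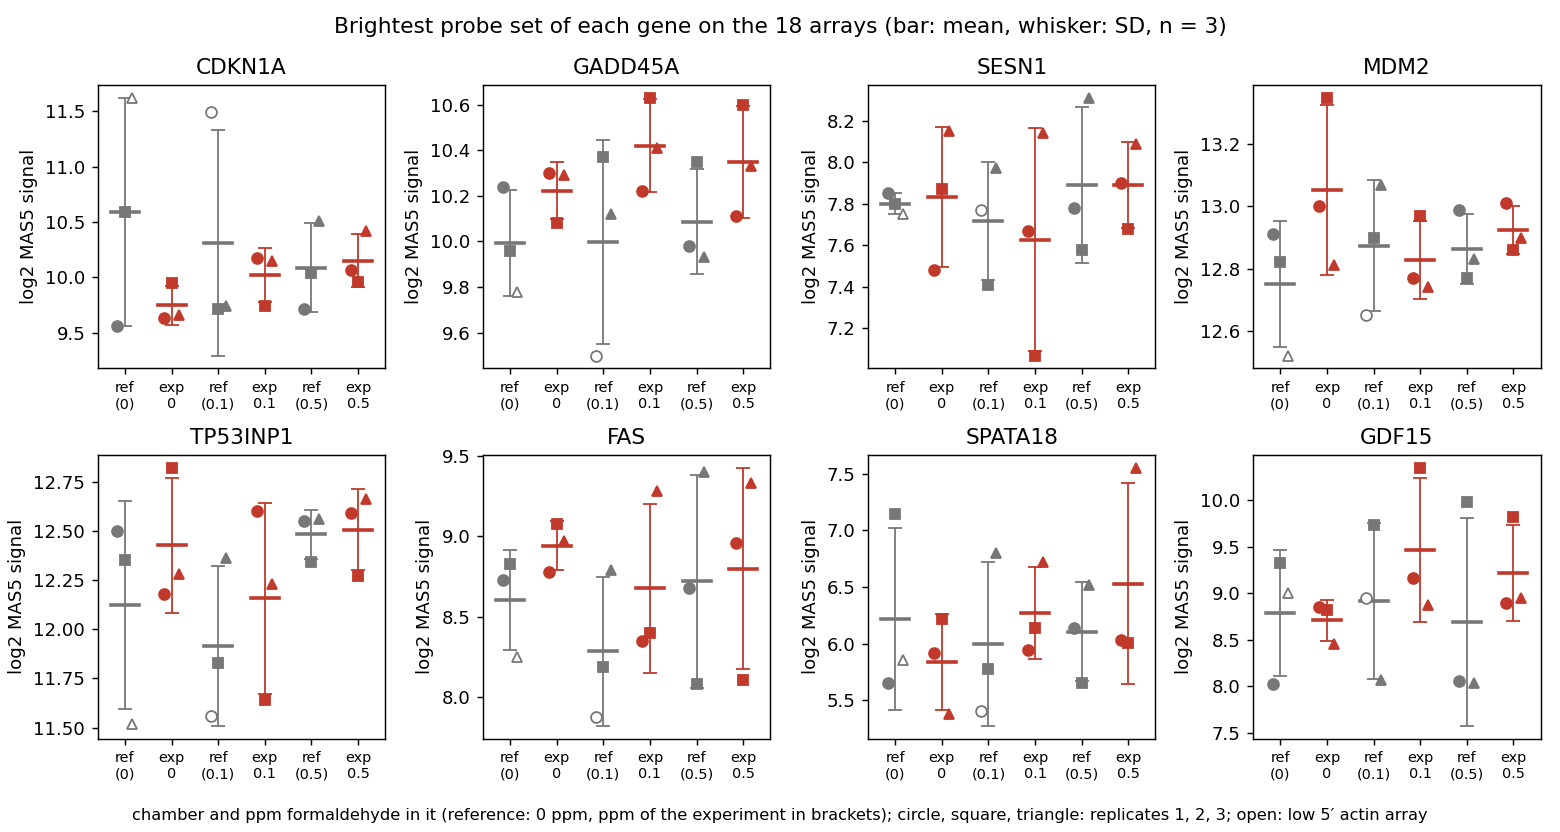
Log2 MAS5 signal (vertical axis) of the brightest probe set of each gene on the 18 arrays, by chamber and ppm (horizontal axis), with the mean and SD of 3 arrays, and the low actin arrays drawn open. The open points hold the 2 highest CDKN1A values, 11.62 and 11.49, and the lowest of GADD45A, MDM2, TP53INP1 and FAS at 9.50, 12.52, 11.52 and 7.88.

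GADD45A (203725_at) encodes a small protein of growth arrest and DNA repair. Its signals were 10.24, 9.96 and 9.78 in the reference and 10.30, 10.08 and 10.29 in the exposure chamber at 0 ppm. At 0.1 ppm they were 9.50, 10.37 and 10.12 against 10.22, 10.63 and 10.41, and at 0.5 ppm 9.98, 10.35 and 9.93 against 10.11, 10.60 and 10.33. The exposure-chamber array was the higher of its experiment in 9 of 9 experiments, the 3 without formaldehyde included, while the groups overlapped in each comparison. The differences between chambers were 0.23, 0.42 and 0.26 at 0, 0.1 and 0.5 ppm, with 95% intervals of -0.43 to 0.89, -0.52 to 1.36 and -0.40 to 0.91. They were 0.12 at 0 ppm and 0.18 at 0.1 ppm without the low actin arrays. From 0 ppm in the exposure chamber GADD45A differed by 0.20 at 0.1 ppm (-0.37 to 0.77) and by 0.12 at 0.5 ppm (-0.46 to 0.70).

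SESN1 (218346_s_at) encodes sestrin 1, which restrains mTORC1 signalling under stress. The group means lay between 7.63 and 7.89, and the differences in the 5 comparisons were 0.032, -0.090, -0.0020, -0.21 and 0.059. The widest interval, that of 0.1 ppm against the reference chamber, ran from -1.11 to 0.93. The lowest array of the 18 was the 0.1 ppm exposure chamber, replicate 2, at 7.07, and the reference chamber of the same experiment had the next lowest value, 7.41.

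MDM2, the ubiquitin ligase that holds p53 down, had 11 probe sets, 5 of them above the median probe set, and 229711_s_at was the brightest. Its signals were 12.91, 12.82 and 12.52 in the reference and 13, 13.35 and 12.81 in the exposure chamber at 0 ppm. At 0.1 ppm they were 12.65, 12.90 and 13.07 against 12.77, 12.97 and 12.74, and at 0.5 ppm 12.99, 12.77 and 12.83 against 13.01, 12.86 and 12.90. The 0.5 ppm exposure arrays spanned 0.16 and lay inside the range of the reference chambers. The differences were 0.30, -0.043 and 0.059 between chambers at 0, 0.1 and 0.5 ppm, with an interval of -0.48 to 0.60 at 0.5 ppm. They were -0.22 and -0.13 at 0.1 and 0.5 ppm against 0 ppm in the exposure chamber, with intervals of -0.83 to 0.38 and -0.71 to 0.45, which are ratios of 0.563 to 1.3 and 0.610 to 1.37.

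The probe sets of MDM2 did not follow one another. Over the 18 arrays the brightest had a Pearson r of 0.63 with 244616_x_at, 0.54 with 225160_x_at, 0.060 with 238733_at and -0.22 with 217542_at, all above the median, which is a description of arrays that share chambers and experiments. The log2 signals of 217542_at were 8.15, 8.84 and 8.37 in the reference and 7.52, 7.82 and 8.46 in the exposure chamber at 0 ppm. At 0.1 ppm they were 8.96, 8.85 and 8.44 against 7.62, 8.60 and 7.62, and at 0.5 ppm 8.74, 8.56 and 8.35 against 8.21, 8.06 and 7.81. The exposure-chamber array was thus lower in 8 of 9 experiments, and the groups did not overlap at 0.5 ppm. The differences were -0.52, -0.80 and -0.52 at 0, 0.1 and 0.5 ppm, and the one at 0.5 ppm had an unadjusted p of 0.0820 in limma and was not called. With the experiment as a block its unadjusted p was 0.0469 and its adjusted p 0.935 in limma.

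TP53INP1 (225912_at) encodes a p53-induced protein of cell death and autophagy. Its differences were 0.30, 0.24 and 0.027 between chambers at 0, 0.1 and 0.5 ppm, and 0.0010 and 0.058 at 0 and 0.1 ppm without the low actin arrays, which had the 2 lowest signals, 11.52 and 11.56. Against 0 ppm in the exposure chamber it differed by -0.27 at 0.1 ppm (95% interval -1.14 to 0.60) and by 0.081 at 0.5 ppm (-0.60 to 0.76). SPATA18 (229331_at), which takes part in the removal of damaged mitochondrial protein, ranged from 5.38 to 7.55. Both ends of that range are exposure-chamber arrays, at 0 ppm, replicate 3, and at 0.5 ppm, replicate 3. SPATA18 differed by -0.38, 0.27 and 0.43 between chambers and by 0.42 and 0.69 from 0 ppm within the exposure chamber, the last with an interval of -0.59 to 1.97.

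FAS (204780_s_at) encodes the death receptor of that name. Its signals were 8.73, 8.83 and 8.25 in the reference and 8.78, 9.08 and 8.97 in the exposure chamber at 0 ppm. At 0.1 ppm they were 7.88, 8.19 and 8.79 against 8.35, 8.40 and 9.28, and at 0.5 ppm 8.68, 8.08 and 9.40 against 8.96, 8.11 and 9.33. Values ran together within an experiment: replicate 3 was the highest and replicate 1 or 2 the lowest in both chambers at 0.1 and 0.5 ppm. The differences between chambers were 0.34, 0.39 and 0.079. Without the low actin arrays, which hold 8.25 and 7.88, they were 0.16 at 0 ppm and 0.19 at 0.1 ppm. The differences from 0 ppm in the exposure chamber were -0.27 and -0.14, with intervals of -1.09 to 0.56 and -1.06 to 0.77. The other 3 FAS probe sets above the median, 204781_s_at, 215719_x_at and 216252_x_at, had r of 0.70, 0.87 and 0.84 with it over the 18 arrays.

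GDF15 (229868_s_at) encodes a secreted stress cytokine of the TGF-beta family. Its signals were 8.03, 9.33 and 9 in the reference and 8.85, 8.82 and 8.46 in the exposure chamber at 0 ppm. At 0.1 ppm they were 8.95, 9.74 and 8.07 against 9.17, 10.35 and 8.88, and at 0.5 ppm 8.06, 9.98 and 8.04 against 8.90, 9.82 and 8.95. The exposure arrays at 0.1 ppm and at 0.5 ppm all lay above the 3 at 0 ppm, by 0.03 and 0.05 at the nearest. The difference from 0 ppm was 0.75 at 0.1 ppm (SE 0.44, 95% interval -0.34 to 1.85) and 0.52 at 0.5 ppm (SE 0.33, -0.31 to 1.35), or 1.69-fold and 1.43-fold. Without replicate 2 of the 0.1 ppm exposure chamber the first was 0.31, and without replicate 2 of the 0.5 ppm exposure chamber the second was 0.22. Both arrays come from the 2 experiments that stood apart in cell cycle genes, described below. Against the reference chamber it was -0.079 at 0 ppm, 0.54 at 0.1 ppm and 0.53 at 0.5 ppm, with intervals of -1.09 to 0.94, -0.93 to 2.01 and -1.02 to 2.09. The 9 reference-chamber arrays, where no formaldehyde was present, ranged from 8.03 to 9.98. The other GDF15 probe set above the median, 221577_x_at, differed less from 0 ppm, by 0.37 at 0.1 ppm and 0.20 at 0.5 ppm, and its groups overlapped. Against the reference chamber 221577_x_at had -0.23, -0.023 and 0.29 at 0, 0.1 and 0.5 ppm.

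Groups of 3 and 3 arrays that do not overlap were also counted, by the brightest probe set of the 8 genes and over all 26. At 0.1 against 0 ppm this was GDF15 alone, 1 of 8 (8.57% of all probe sets), and at 0.5 against 0 ppm GDF15 and CDKN1A, 2 of 8 (8.55%). Between chambers none of the 8 genes was so split, where 10% of all probe sets were with 0 ppm, 7.87% with 0.1 ppm and 6.75% with 0.5 ppm. Over the 26 probe sets the split held for 3 at 0 ppm, all higher in the exposure chamber, MDM2 205385_at (0.50) and FAS 215719_x_at (0.63) and 216252_x_at (0.67). It held for 1 at 0.1 ppm, MDM2 238733_at (-0.27), and for 3 at 0.5 ppm, MDM2 217542_at (-0.52) and the dim GDF15 221576_at (1.47) and MDM2 237891_at (2.78). Within the exposure chamber no probe set beyond those of GDF15 and CDKN1A was so split.

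Whether a difference between chambers at 0.1 or 0.5 ppm departed from that at 0 ppm was tested as an interaction. Of the 26 probe sets 0 were called at 0.1 ppm (3.21% of all probe sets) and 0 at 0.5 ppm (3.69%). The largest of the 8 genes by size was CDKN1A at 0.5 ppm, 0.91 (95% interval -0.53 to 2.35), which was 0.40 (-0.71 to 1.5) without the low actin arrays. For GDF15 it was 0.62 at 0.1 ppm (-1.06 to 2.30) and 0.61 at 0.5 ppm (-1.12 to 2.35), and for GADD45A 0.20 and 0.029. Between reference chambers, where no culture met formaldehyde, 0 of 26 were called for the 0.1 against the 0 ppm experiments (3.68%) and 1 of 26 for the 0.5 against the 0 ppm experiments (4.54%). The call was 205386_s_at, a dim MDM2 probe set, with means of 4.47 and 3.30, a difference of 1.17 (SE 0.45) and an adjusted p of 0.924 in limma.

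GADD45A had 1 sign in 9 of 9 experiments and 217542_at in 8 of 9, all but 0 ppm, replicate 3 (0.1). The chambers were therefore compared over all 9 experiments, with the experiment as a block, a comparison added after these values were seen. Both were singled out by their sign in these same experiments, so their p-values and intervals here describe the values and are no independent test. For GADD45A the exposure chamber was higher by 0.06, 0.12 and 0.51 in the 0 ppm experiments, by 0.72, 0.26 and 0.29 at 0.1 ppm and by 0.13, 0.24 and 0.40 at 0.5 ppm. The mean was 0.30 (SE 0.11, 95% interval 0.057 to 0.55), with an unadjusted p of 0.0209 and an adjusted p of 0.494 in limma. With the ppm of the experiment as the block in place of the experiment, the unadjusted p was 0.0480 in limma. The 0.51 and 0.72 come from the experiments of the low actin arrays, and without them the mean was 0.21, with an unadjusted p of 0.0502. For the MDM2 probe set 217542_at the mean was -0.62 (SE 0.16, -0.96 to -0.27), unadjusted p 0.00284 and adjusted p 0.494 (unadjusted p 0.00334 with ppm as the block), and -0.61 without those 2 experiments. The brightest MDM2 probe set had a mean of 0.11 (-0.15 to 0.36), above 0 in 8 of 9 experiments.

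In that comparison 6 of 26 probe sets were called, where 10% of all probe sets were, 1396 higher and 4087 lower, and 0 passed an adjusted p of 0.05. Beside GADD45A and 217542_at they were FAS 204780_s_at (0.27) and 216252_x_at (0.40), and the dim GDF15 221576_at (1.39) and FAS 233820_at (-0.78). In a fit of the probe sets above the median alone, 5122 of 27337 were called, and 4 of the 16 members among them. Both brighter FAS probe sets were at 0.18 and 0.17 and not called without the experiments of the low actin arrays. A single sign in 9 of 9 experiments was found for 1 of the 26, GADD45A, and for 1.77% of all probe sets, 216 higher and 751 lower. CD14, of the leukocyte list, was lower in the exposure chamber in 9 of 9 experiments, by 0.65 on average (unadjusted p 0.00628, adjusted p 0.494 in limma). Its largest differences, -1.41 and -1.49, came from the experiments of the low actin arrays, and its smallest were -0.01 and -0.02. CD14 was the 1 of 4 leukocyte markers called, and their summed signal ran from 87.9 to 358.4 in reference and from 82.3 to 152.2 in exposure chambers. The reference groups that hold the low actin arrays reached 358.4 and 301.1. In the other comparisons KRT19 was called higher at 0.1 and at 0.5 against 0 ppm, by 1.17 and 1.05, and between the reference chambers of the 0.1 and 0 ppm experiments, by 1.62. Called markers below the median probe set were COL3A1 at 0.1 ppm against the reference chamber (-1.53), PTPRC (2.63) and PDGFRB (-1.42) at 0.5 ppm against it, and CD79A at 0.5 against 0 ppm (-1.4). PTPRC and COL3A1 were also called between reference chambers and in an interaction. The lowest adjusted p of all these was 0.617 in limma, and the part of these markers in the members' differences was not tested.

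**Figure D3:**
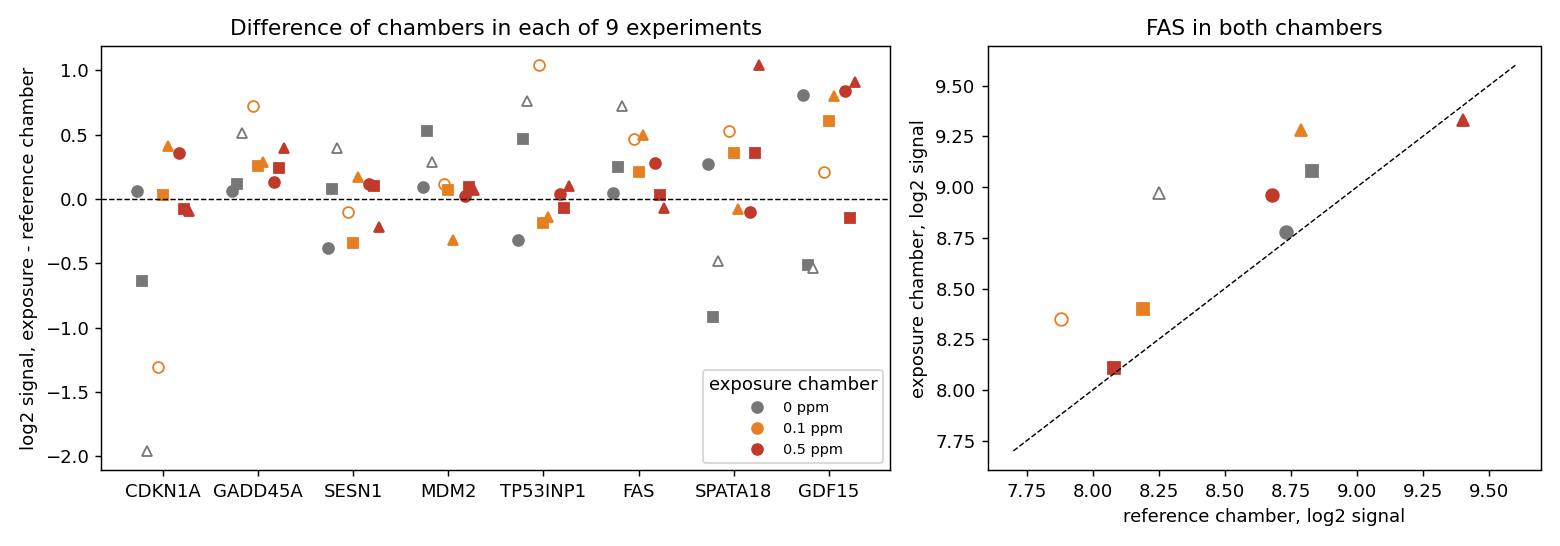
Left, log2 difference between exposure and reference chamber (vertical axis) in each of 9 experiments for the 8 genes (horizontal axis), coloured by ppm, with the 2 experiments of the low actin arrays open. Right, FAS log2 signal in the exposure (vertical axis) against the reference chamber (horizontal axis) of the same experiments. GADD45A lies above 0 in 9 of 9 experiments, CDKN1A reaches -1.96 and -1.31 in the open ones, and FAS runs from 7.88 to 9.40 in the reference and from 8.11 to 9.33 in the exposure chamber.

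How far a gene's level belonged to the experiment was measured by the correlation of its values in both chambers over the 9 experiments, for 8 genes, also added after the data were seen. FAS had a Pearson r of 0.85 (exact permutation p 0.00410, adjusted p 0.0328 over 8) and a Spearman rho of 0.90 (exact permutation p 0.00203). Without the 2 experiments farthest from the median r was 0.80 (exact permutation p 0.0212), and without those of the low actin arrays 0.91. SESN1 had r of 0.69, GADD45A 0.66 and GDF15 0.65, each with an adjusted p of 0.105 (exact permutation), and their rho was 0.40, 0.67 and 0.33. Without the 2 farthest experiments these r were 0.32, 0.62 and 0.53. SPATA18 had r of 0.54, TP53INP1 0.28, MDM2 0.17 and CDKN1A 0.090, with adjusted p from 0.211 to 0.813 (exact permutation). Without the experiments of the low actin arrays r was 0.84 for GADD45A, 0.78 for SESN1 and for GDF15, 0.77 for TP53INP1, 0.55 for CDKN1A, 0.48 for SPATA18 and -0.38 for MDM2, so the low values of CDKN1A and TP53INP1 and the sign of MDM2 moved with those 2 experiments. Each kind of experiment holds 3 experiments, too few for a correlation within it.

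p21 represses genes of mitosis and replication, so the members were set against the mean log2 signal of 18 such genes, among them MKI67, CCNB1 and PLK1. Replicate 2 of the 0.1 ppm experiments had list means of 10.12 in the reference and 10.19 in the exposure chamber, and replicate 2 of the 0.5 ppm experiments 10.12 and 10.07. The other 14 arrays lay between 9.24 and 9.82, so these 2 experiments stood apart in both chambers. The 4 highest GDF15 signals of the 18, from 9.74 to 10.35, belong to them. FAS was between 8.08 and 8.40 and SESN1 between 7.07 and 7.68 on the same 4 arrays, each in the lower part of its range. CDKN1A was between 9.71 and 10.04 there, inside its range on the other arrays. With the 2 experiments apart no correlation over all 9 is given. Over the other 7, r with the list mean was 0.48 for GDF15, -0.61 for SESN1, -0.57 for FAS and 0.21 for CDKN1A, with adjusted p from 0.572 to 0.711 over 16 relations (exact permutation).

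Differences between chambers were compared with those of the list over all 9 experiments. For MDM2 r was -0.70 (rho -0.55), with an exact permutation p of 0.0250 and an adjusted p of 0.331. For GDF15 r was 0.70 (rho 0.50), with an exact permutation p of 0.0413 and an adjusted p of 0.331. Without the 2 farthest experiments r was -0.79 for MDM2 and 0.57 for GDF15. For CDKN1A r was 0.48, with an exact permutation p of 0.193 and an adjusted p of 0.572. Over the 7 experiments without the low actin arrays r was 0.76 for CDKN1A (exact permutation p 0.0377) and -0.79 for TP53INP1 (exact permutation p 0.0240), which had -0.42 over all 9. Each had an adjusted p of 0.151, taken over the chamber differences of that setting alone. No relation of the 16 passed the adjustment, nor did any of that setting.

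**Figure D4:**
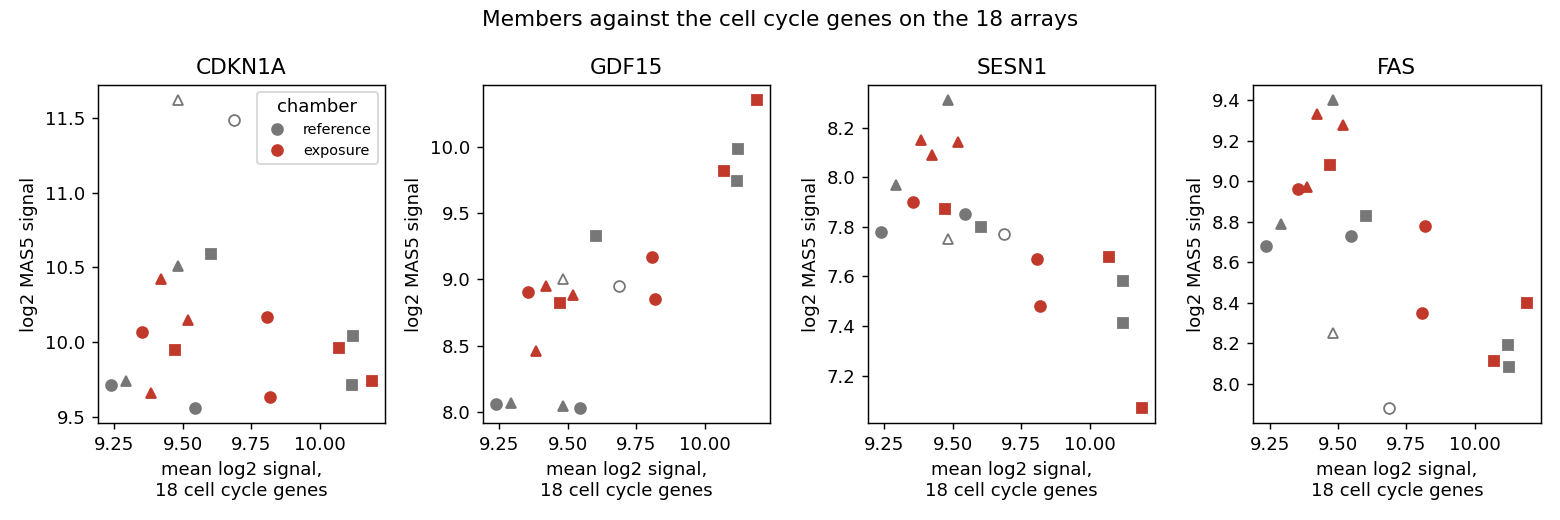
Log2 MAS5 signal of CDKN1A, GDF15, SESN1 and FAS (vertical axes) against the mean log2 signal of 18 cell cycle genes (horizontal axes) on 18 arrays, coloured by chamber, with marker shape for the replicate number and low actin arrays open. The 4 arrays to the right, at 10.07 to 10.19, hold the 4 highest GDF15 values, from 9.74 to 10.35.

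The 18 cell cycle genes themselves had 0 called in each of the 5 comparisons. At 0.1 against 0 ppm 17 of 18 lay above 0, with a median of 0.35 (all probe sets: -0.034), and between the reference chambers of the same experiments 15 of 18 did, with a median of 0.15. At 0.5 against 0 ppm 10 of 18 lay above 0, with a median of 0.099. The exposure-chamber list means were 9.819, 9.472 and 9.385 at 0 ppm and 9.808, 10.192 and 9.518 at 0.1 ppm. The 10.192 belongs to an experiment that stood apart in these same genes, and the 0.5 ppm group holds the other such experiment. Over the chambers of all 9 experiments CDK1, the kinase of mitotic entry, was called at 0.42 and TOP2A, which untangles DNA, at 0.29. Both had an adjusted p of 0.49 in limma, and they were 2 of 18, where 10% of all probe sets were called. All 18 lie above the median probe set, and a fit of such probe sets alone called 5122 of 27337. Of 11 cyclins, kinases and partners that p21 or its targets act on, 0 were called in the 5 comparisons or over the chambers.

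Of 31 further p53 targets 28 were measured. Between chambers 0 of 28 were called at 0, 0.1 and 0.5 ppm, with medians of -0.0063, 0.050 and 0.0052. At 0.1 against 0 ppm 1 was called, EDA2R, a receptor of the TNF family, at 2.44 (SE 0.84, adjusted p 1.00 in limma) with a mean log2 signal of 1.26, below the median probe set. At 0.5 against 0 ppm 0 were called. PIDD1, an adaptor of caspase-2 activation, was called in the interaction at 0.5 ppm, at 1.20 (adjusted p 1.00 in limma). It was also called between the reference chambers of the 0.5 and 0 ppm experiments, at -1.16 (adjusted p 0.924 in limma). Over the chambers of all 9 experiments LIF, a cytokine, was called higher at 0.48, in 9 of 9 experiments. DRAM1, a lysosomal regulator of autophagy, was called lower at -0.28, in 9 of 9. NINJ1, a membrane protein, was called at -0.55 and XPC, a sensor of DNA damage, at -0.43. These are 4 of 28, 1 higher and 3 lower, where 10% of all probe sets were called, each with an adjusted p of 0.494 in limma. Of the 28, 26 lie above the median probe set, and a fit of such probe sets alone called 5122 of 27337.

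Of 13 measured regulators of p53, among them ATM, CHEK2 and USP7, and of 12 relatives of the members, among them SESN2 and CDKN1B, 0 were called in the 5 comparisons. MDM4, which stands in both lists and also restrains p53, had a chamber difference of 0.42 over the 9 experiments, and KAT5, an acetyltransferase, one of -0.31. GADD45B, the relative of GADD45A, had one of -0.33, below 0 in 9 of 9 experiments, opposite in sign to GADD45A. The 3 were called at an unadjusted p under 0.05 and had an adjusted p of 0.494 to 0.495 in limma. That is 1 higher and 1 lower among the 13 regulators, and the same among the 12 relatives, where 10% of all probe sets were called. A fit of the probe sets above the median alone, where 13 of the regulators and 11 of the relatives lie, called 5122 of 27337.

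The 5 genes whose pattern over the 18 arrays was most like that of CDKN1A, among 12392 genes ranked, were HCFC1R1, FAM89B, PPCDC, FXYD5 and SYMPK, with Pearson r from 0.92 to 0.94. On the 16 arrays without the low actin ones their r was between 0.68 and 0.78. For MDM2 they were EFR3A, GPX8, TRPC1, LRP11 and MCFD2, with r from 0.86 to 0.88, and from 0.77 to 0.83 on the 16 arrays. Among the members, CDKN1A and GADD45A had r of -0.71, which was -0.34 on the 16 arrays, and CDKN1A and MDM2 -0.66 and -0.33. GDF15 and SESN1 had r of -0.72 on the 18 and on the 16 arrays, and SESN1 and FAS 0.69 and 0.77. These r describe arrays that share chambers, experiments and scaling.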

How the data were processed

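RNA of A549 cultures was amplified from the 3′ end and hybridised to HG-U133 Plus 2.0 arrays by the authors, who computed MAS5 signals. The deposited values are intensities on a linear scale, each array with a trimmed mean of 500.0 (median signal 26.7 to 34.0), taken to log2 here. The number of arrays limits the precision. Of 54675 probe sets 41097 name 1 gene, 1801 several and 11777 none, from GEO's platform annotation. Groups came from the labels. Every member is named, the probe set of highest mean stands for a gene, and other probe sets or list genes are named where called or where singled out after their values were seen. limma (version 3.58.1, R 4.3.3; lmFit, eBayes) compared 3 with 3 arrays over all probe sets, with unadjusted p under 0.05 as call and Benjamini-Hochberg values over all of them. Correlations used exact permutation of all orders, two-sided. Fits were tested on simulated data. Arrays with the same letter and number in the titles were taken as both chambers of 1 experiment, which the labels do not state in words. Their deviations from group means correlated at 0.0090 to 0.49 over 9 pairs, 3 of them at 0.0090, 0.049 and 0.0090. Members and lists were chosen with earlier results of these data known.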

Additional observations from a re-analysis of the deposited data

How the results depend on the processing

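Each comparison of the 26 probe sets was repeated with quantile normalization, log2(signal + 32), a variance trend and bright probe sets only. A replicate block, 1 fit of all arrays and leaving out each array were further settings. No called difference reversed, while differences that were not called changed sign in places, such as CDKN1A at 0.1 ppm against the reference chamber (-0.29, and 0.29 without the low actin arrays). The count at 0.1 ppm against the reference chamber was 1 with log2(signal + 32), with the trend and in 1 fit of all 18 arrays (each MDM2 217542_at), and 1 without the low actin arrays (SPATA18 230723_at). In the same order 1543, 1458, 2376 and 2241 of all 54675 probe sets were called. At 0.5 ppm against the reference chamber the count was 2 with log2(signal + 32), with the trend and with the replicate block, and 1 among bright probe sets (217542_at in each, joined by GDF15 221576_at in the first and by MDM2 237891_at with the trend and the block). There 1581, 1330 and 2908 of 54675 were called, and 471 of 27337 bright ones. At 0.1 against 0 ppm the count was 1 with the trend (GDF15 229868_s_at), where 2027 of 54675 were called. At 0.5 against 0 ppm it was 1 with log2(signal + 32) and with the trend (CDKN1A), where 2385 and 2080 of 54675 were called. It was also 1 there with the replicate block (237891_at), where 2708 of 54675 were called. Within the exposure chamber that block joins arrays of different experiments by replicate number alone, so it is not a pairing there. The interaction at 0.1 ppm gave 2 with the replicate block (MDM2 205386_s_at and 230723_at), where 2135 of 54675 were called. Between reference chambers, 0.1 against 0 ppm gave 1 without the low actin arrays (MDM2 217373_x_at), where 2702 of 54675 were called. In the same chambers 0.5 against 0 ppm gave 2 after quantile normalization (2469 of 54675) and 0 with log2(signal + 32) (2373), among bright probe sets (869 of 27337) and with the trend (2231 of 54675). The replicate block changed no other count. Leaving out 1 array gave 0 to 1 at 0 ppm, 0 to 2 at 0.1 ppm and 0 to 2 at 0.5 ppm between chambers, 0 to 1 in both comparisons within the exposure chamber and in both interactions, and 0 to 1 and 0 to 2 between reference chambers. Of all 54675 probe sets, 2177 to 4979 were then called between chambers and within the exposure chamber, and 1666 to 3442 in the interactions. Between the reference chambers of the 0.1 and 0 ppm experiments 1973 to 2560 were. Without replicate 1 of the 0 ppm reference chamber CDKN1A was called at 0 ppm, at -1.36, and without replicate 2 of the 0.5 ppm reference chamber GDF15 at 0.5 ppm, at 1.18. Over the chambers of all 9 experiments the 6 calls were 4 with ppm in place of the experiment as the block and 2 to 5 without an experiment. Of all 54675 probe sets, 4023 were called with ppm as the block and 3754 to 6149 without an experiment. GADD45A stayed above 0, from 0.21 to 0.34, and 217542_at below 0, from -0.70 to -0.52. With the low actin experiments left out, r with the list was -0.68 for MDM2, 0.68 for GDF15, 0.76 for CDKN1A and -0.79 for TP53INP1. The cause was not tested. Probe sets below the median signal carry large differences at low signal, and with 3 arrays a group 36 of the 40 intervals of the 8 genes reach above a 1.5-fold increase.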
